A study of Apis mellifera with 79 samples.

Results

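RNA was sequenced from 30 single forager brains of the apiary experiment on worker honey bees (Apis mellifera), out of 79 libraries in the whole series. The bees were taken by their labels, as every forager library of that experiment. The exposed group held 15 foragers, 5 from each of the colonies C21, C23 and C28, which were fed pollen patties spiked with clothianidin. The unexposed group held 15 foragers, 5 from each of the colonies C25, C26 and C27, which were fed a control patty without the insecticide. The dose in the patties stood at 4.9 ppb in the first week and had been lowered in steps to 2.0 ppb by week 5. The bees were collected on day 30 from colonies with a queen in a single apiary, and the hypopharyngeal glands and ocelli were removed from the brains. Strain and age of the bees are not given in the sources used here, and the dose that each bee took in was not analysed here. Clothianidin was given to colonies, so that the exposure had 3 replicates in each group, and the 5 bees of a colony share its queen, its food stores and its dose.

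Clothianidin is a neonicotinoid, a class of insecticide that binds the nicotinic acetylcholine receptors. Acetylcholine is the main excitatory transmitter of the insect brain, and it serves in the mushroom bodies and antennal lobes, where smells are learned. Foragers are the older workers that leave the hive for pollen and nectar, and they depend on this learning.

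The values were log2 CPM, the log2 of the reads of a gene per 1000000 reads of its library, with a small constant added. A step of 1 is therefore a factor of 2, and a gene with no reads stood at -3.75. Each exposed forager gave 19.7 to 36.3 M reads within genes (median 27.9 M, M being 1000000) and each unexposed forager 21 to 39.99 M (median 25.5 M). The labels name a pair of sequencing runs, and 7 exposed foragers (3 of C23 and 4 of C28) were in run HI.4184, while the other 8 exposed and all 15 unexposed foragers were in run HI.4193. The first principal component held 13.7% of the variance and the groups overlapped along it. Forager C23-F3 lay lowest of the 30 on each of the first 3 components. The columns named C25-F1 and C27-F1 could be tied to the unexposed group but not to a single library, and C25-F1 occurs as 2 columns. These 2 columns differed in reads by a median chi-square of 6.55 per gene, within the 1.83 to 7.32 of the other pairs of C25 foragers, and were kept as 2 bees. Tissue markers could not be looked up by name. The transcription factor Mblk-1, first described in the mushroom bodies, stood at 10.35 log2 CPM or more in every unexposed forager. In exposed foragers it ran from 9.81 to 11.73, and 2 of them, C28-F9 at 9.81 and C23-F3 at 10.15, lay below every unexposed one.

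Between the exposed and the unexposed colonies, most genes of the forager brain differed little. Of the 11381 genes, 7436 (65.3%) differed by less than 0.1 on the log2 scale between the averages of the 3 exposed and the 3 unexposed colony means, 9667 (84.9%) by less than 0.2, and 25 were higher and 43 lower by more than 1. Limma on the 6 colony means called 0 genes at an adjusted p below 0.05 (Benjamini-Hochberg, two-sided, lowest adjusted p 0.659), a background of 0%. An unadjusted p below 0.05 was reached by 533 genes, 333 higher and 200 lower in exposed colonies, or 4.68% of all genes. The 3 exposed colony means lay all above or all below the 3 unexposed ones in 1140 genes (10%), 525 higher (4.61%) and 615 lower (5.4%). With the 30 bees as replicates, which also counts differences between colonies as exposure, limma called 1 gene (0.00879%), GB53776, lower in exposed foragers. An unadjusted p below 0.05 was found for 1082 genes (9.51%).

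The genes called in the fit on bees changed with the colonies and bees included. GB53776 lost its call without the unexposed colony C26 (adjusted p = 0.102 from limma) and without C27 (adjusted p = 0.124), and kept it without each of the other 4 colonies (adjusted p from 0.000395 to 0.0276). In all, the fit called 0 genes without C26 (622 at an unadjusted p below 0.05), 1 without C27, which was another gene, with a higher average in exposed foragers and no name, 2 without C25, 2 without the exposed colony C21, 3 without C28 and 68 without C23. Without forager C23-F3 alone it called 38 genes, of which 24 averaged higher and 14 lower, and this fit was added once the data had been seen. Among the foragers of run HI.4193 alone it called 23 genes, 15 higher and 8 lower, and 5 of the 8 exposed bees in that fit were of C21, 2 of C23 and 1 of C28. On colony means limma called 0 genes in each of these subsets, with 718 genes higher and 390 lower at an unadjusted p below 0.05 without C23-F3.

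**Figure D1:**
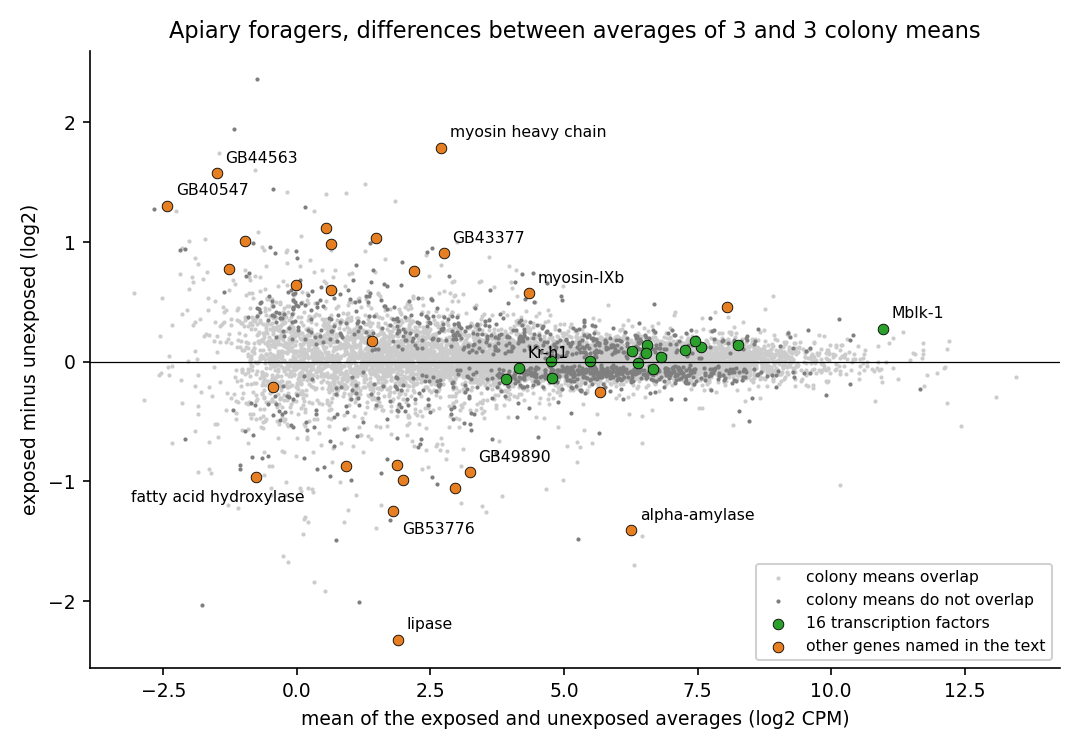
Each point is a gene, with the mean of the exposed and unexposed averages in log2 CPM on the x axis and their difference in log2 units on the y axis. Dark grey points are genes whose 3 exposed colony means lie all on the same side of the 3 unexposed ones, and coloured points are genes named in the text. The transcription factors in green lie between -0.14 and 0.28, and the lipase has the lowest difference, -2.32.

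Little of the spread lay between colonies of the same group. The SD between the 5 bees of a colony had a median over genes of 0.214 on the log2 scale, and the SD between colony means of a group, each an average of 5 bees, 0.0992. The intraclass correlation, the share of the variance that lies between colonies of a group, had a median of 0.0337 (quartiles -0.0785 and 0.171). It was above 0.5 in 197 genes (1.73%). It falls below 0 where colony means lie closer together than averages of 5 bees would from the spread between bees alone.

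The spread between nestmates averaged higher in the exposed colonies than in the unexposed ones. The median over genes of the SD between bees was 0.230 in C21, 0.213 in C23 and 0.206 in C28, and 0.155 in C25, 0.176 in C26 and 0.171 in C27. The groups did not overlap and their averages, 0.216 and 0.167, had a ratio of 1.29 (exact permutation test over colonies, two-sided, p = 0.10, the smallest p that 3 against 3 can give). In nurses of the same colonies the SD was 0.232, 0.195 and 0.173 in the exposed and 0.147, 0.144 and 0.165 in the unexposed colonies, a ratio of 1.31 (p = 0.10 in the same exact test). Single bees weighed on these values. Leaving out C23-F3 lowered C23 to 0.150, and leaving out C28-F9 lowered C28 to 0.168. In the unexposed colonies, leaving out the bee that raised the value most lowered C25 to 0.139, C26 to 0.156 and C27 to 0.158. In C21 the SD without any single forager stayed between 0.195 and 0.241. Foragers of C23 and C28 came from both sequencing runs, whereas those of C21 and of the unexposed colonies came from a single run. Nurses of C21 and C27 came from both runs, all those of C28 from run HI.4184, and all those of C23, C25 and C26 from run HI.4193. The part of the runs was not tested in either caste. This comparison was chosen after the values were seen.

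**Figure D2:**
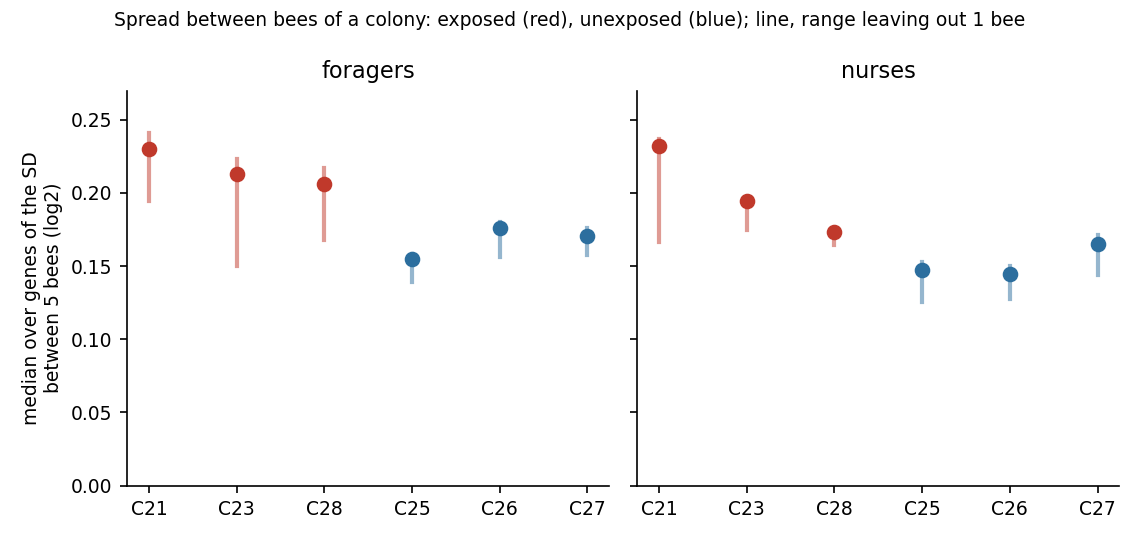
Points show the median over genes of the SD between the 5 bees of each colony, in log2 units, for foragers (left) and nurses (right), and lines the range of this value when any single bee is left out. The exposed colonies lie between 0.206 and 0.230 in foragers and the unexposed ones between 0.155 and 0.176. The line of C23 reaches down to 0.150 and that of C25 to 0.139.

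GB53776 was the gene called in the fit on bees. Its ID belongs to a set of 7 IDs that share 7 names, and which ID carries which name could not be settled. The names are LOC413693 (cilia- and flagella-associated protein CFAP251), LOC726981 (a circadian clock-controlled protein), LOC551347 (UPF0605 protein), LOC410606 (Skeletor), LOC411651 (a homologue of BBS7, a protein of the BBSome, which carries cargo in cilia) and the uncharacterized LOC100576287 and LOC100577541. The exposed foragers had 0.87, 0.69, 1.55, 1.61 and 1.70 log2 CPM of GB53776 in C21, 0.30, 0.72, 0.90, 1.03 and 1.40 in C23, and 0.61, 0.74, 1.40, 1.87 and 2.34 in C28. The unexposed foragers had 1.50, 1.76, 1.95, 1.98 and 2.45 in C25, 2.04, 2.38, 2.61, 3.00 and 3.36 in C26, and from 2.57 to 2.81 in C27. In the exposed group 10 of 15 bees were under the lowest unexposed bee, and the colony means were highest in C27 and C26. The exposed colony means averaged 1.18 ± 0.27 and the unexposed ones 2.43 ± 0.44 (SD, n = 3 colonies each), a difference of -1.25 (95% interval -1.84 to -0.66, adjusted p = 0.884 from limma on colony means), or 2.38-fold lower. In the fit on bees GB53776 fell with an adjusted p of 0.00245, and with colony as a random block 0.00869. The block fit applied the same correlation between nestmates, 0.043, to all genes. The intraclass correlation of GB53776 itself was 0.29, so that fit took little account of its colonies. Its difference ran from -1.50 to -1.09 when each colony was left out in turn.

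The next IDs were selected by the study for lower values in these same foragers. The names cyp6as5 (a cytochrome P450), NADPH oxidase 5 (which makes reactive oxygen species) and LOC727357 (a fatty acid hydroxylase domain-containing protein) belong to 3 of the 4 IDs GB49890, GB48011, GB43722 and GB53716. All 4 averaged lower in exposed colonies, by 0.86 to 0.99 on the log2 scale, and in 3 of them the colony means did not overlap, beside 5.4% of all genes that were lower without overlap. None passed limma on colony means or on bees. Their shared direction and the lack of overlap follow from the selection and are no independent evidence.

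GB49890 averaged 2.73, 3.03 and 2.57 log2 CPM in the exposed colonies C21, C23 and C28, and 3.96, 3.75 and 3.38 in the unexposed C25, C26 and C27. The difference was -0.92 (95% interval -1.34 to -0.50, adjusted p = 0.884 from limma on colony means), 1.89-fold lower, and 6 exposed foragers were under the lowest unexposed one. The highest of all 30 was nonetheless an exposed forager, C23-F3, at 4.53. GB48011 averaged 0.18, 0.91 and 0.35 against 0.98, 1.55 and 1.53, with a gap of less than 0.1 between C23 and C25. For GB43722 the colony means were 1.62, 1.34 and 1.52 against 2.43, 1.82 and 3.18, and the exposed colonies lay close together (SD 0.14, n = 3) while the unexposed ones spread (SD 0.68, n = 3). GB53716 overlapped, with 1.74, 1.04 and 1.58 against 1.68, 3.37 and 1.89. All 5 foragers of C26 lay from 2.22 to 4.14 in this gene and a single forager of C25 at 3.70.

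A pair of lipid genes that the study named for lower values in these same foragers had wide intervals. The pancreatic triacylglycerol lipase gene LOC551268 (GB43510), whose protein family cleaves fats into fatty acids, had the largest negative difference of all genes tested, -2.32 (95% interval -4.37 to -0.27, adjusted p = 0.884 from limma on colony means). Its colony means were -0.65 in C21, 0.14 in C23 and 2.73 in C28, and 4.03 in C25, 2.64 in C26 and 2.52 in C27. Single foragers ran from -2.17 to 3.75 (median 0.78) in the exposed and from -1.71 to 7.44 (median 3.50) in the unexposed group. The groups overlapped, since all C28 foragers but the lowest, at 0.86, had 2.84 or more. The fatty acid hydroxylase domain-containing gene LOC409360 (GB40899) was high in C26 alone. There, 3 foragers had 1.70, 2.65 and 3.05 log2 CPM, and the other foragers of all colonies lay at or below 0.11. Its difference of -0.97 (95% interval -2.43 to 0.50) was -0.22 without C26.

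The digestive genes varied widely from bee to bee and shared the highest and the lowest colonies with the lipase. The alpha-amylase gene LOC406114 (GB49854), which splits starch, ran from 1.22 to 8.92 log2 CPM in exposed and from 2.13 to 10.38 in unexposed foragers. Its colony means were 4.27, 4.46 and 7.94 in C21, C23 and C28 and 8.15, 5.35 and 7.39 in C25, C26 and C27, a difference of -1.41 (95% interval -4.04 to 1.22). The chymotrypsin inhibitor LOC725114 (GB50118), a protease inhibitor, had colony means of 1.98, 1.04 and 4.31 against 4.84, 2.31 and 3.32 and a difference of -1.05 (95% interval -3.25 to 1.15). In all 3 genes C25 was highest, C28 second, and C21 and C23 lowest. Amylase is made in the hypopharyngeal gland of foragers, a tissue removed at dissection, and its part in the lipase difference was not tested.

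A pair of myosin genes, both taken from the study's selection of genes higher in these same foragers, differed in pattern. The non-muscle myosin heavy chain LOC100576096 (GB40548), a motor protein of the actin skeleton, was high in a single colony. In C21, foragers F1, F2, F4 and F5 had 6.89, 7.40, 7.26 and 7.14 log2 CPM and F3 had 1.90. All other foragers, exposed or not, lay between -0.66 and 3.12. The difference of 1.79 (95% interval -0.53 to 4.10) was 0.53 without C21. Unconventional myosin-IXb (LOC551706, GB54226), named as the counterpart of the fruit fly gene dachs, a regulator of tissue growth, was graded instead. All 5 foragers of C21 had from 4.79 to 5.36 log2 CPM, and the colony means were 5.06, 4.19 and 4.64 in the exposed and 4.38, 3.86 and 3.94 in the unexposed colonies. The difference was 0.57 (95% interval 0.02 to 1.13, adjusted p = 0.884 from limma on colony means), and C23 lay below C25.

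**Figure D3:**
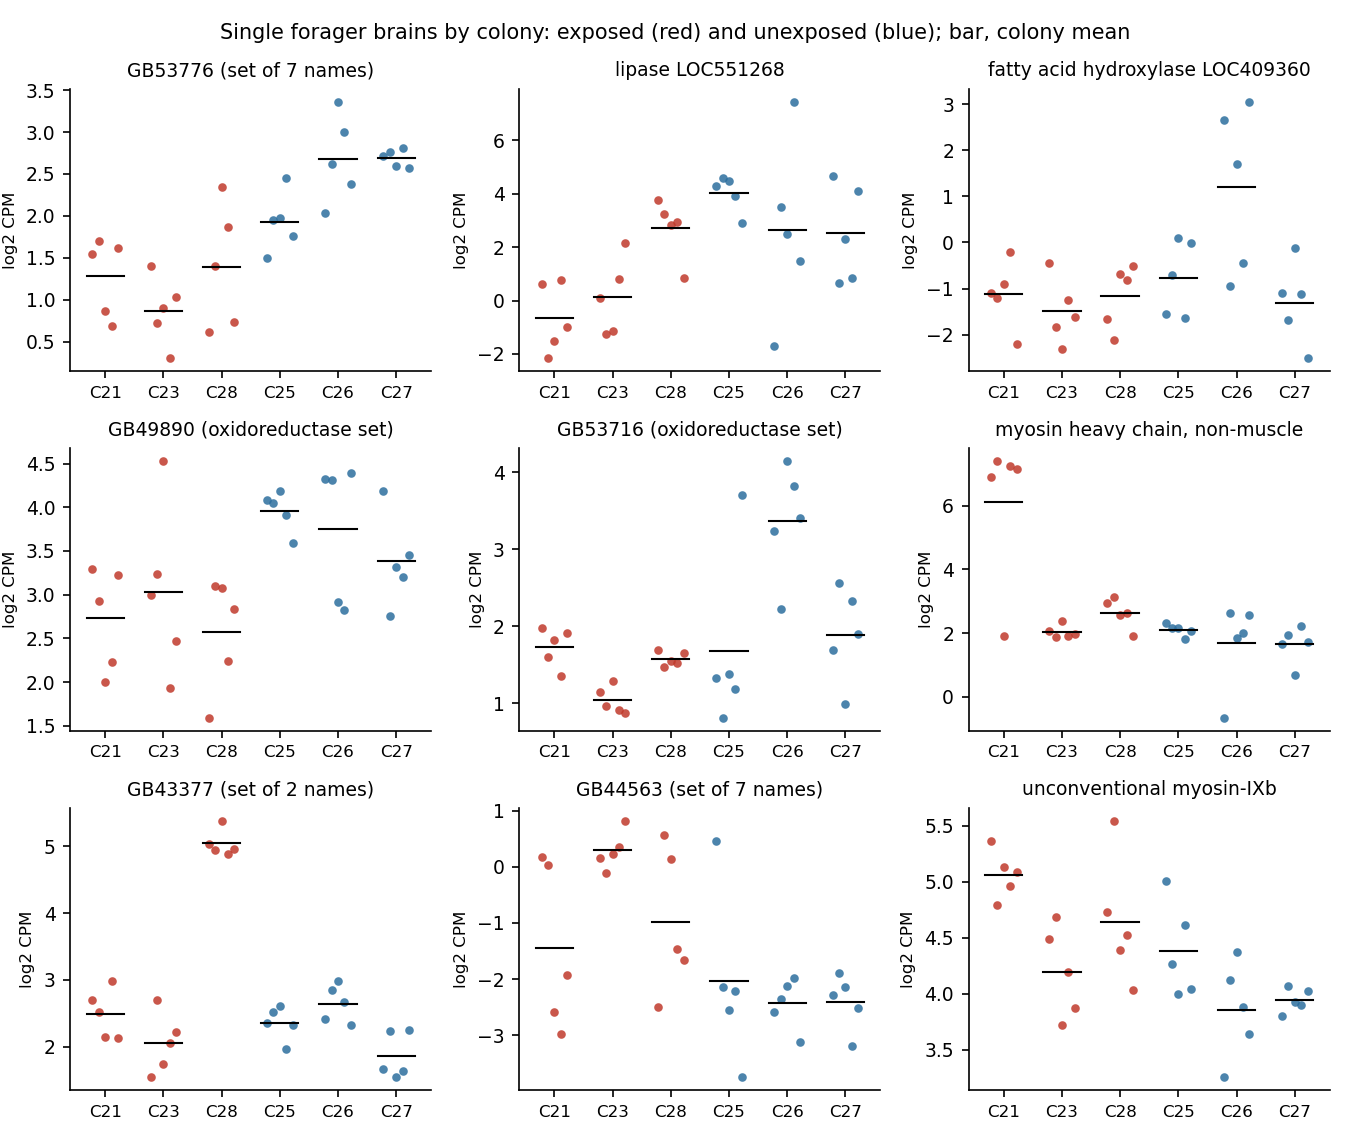
Each panel gives a gene in log2 CPM on the y axis for every forager by colony on the x axis, exposed colonies in red and unexposed in blue, with the colony mean as a black bar. GB53776 and GB49890 are lower in all 3 exposed colonies, whereas the myosin heavy chain is high in 4 foragers of C21 (6.89 to 7.40) and GB43377 in all 5 foragers of C28 (4.89 to 5.38).

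Several genes were at a low level in most foragers and at a high level in foragers of a single colony. GB40547 was high in the same 4 foragers of C21 as the myosin heavy chain, at 1.40, 1.33, 1.20 and 1.52 log2 CPM, and at or below -1.65 in all other foragers. GB40547 and GB43377 carry, in unknown order, the names LOC102656247 (a dynein heavy chain of the flagellar inner arm, a motor of cilia) and LOC102654154 (uncharacterized). GB43377 had 5.04, 4.95, 5.38, 4.89 and 4.95 in the 5 foragers of C28, and from 1.54 to 2.98 in the other 25. Its difference of 0.91 (95% interval -0.83 to 2.64) was -0.02 without C28, and it had the highest intraclass correlation of the genes named here, 0.93. The bestrophin-4 gene LOC551782 (GB48190), of a family of chloride channels, reached 5.26 and 4.79 in 2 foragers of C21 and was at or below 1.25 in the other 28, a difference of 0.64 (95% interval -1.24 to 2.52).

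Across all genes, gene values that exceeded the median of all 30 foragers by 3 log2 units or more were counted by colony. There were 91 in C21, 78 in C23 and 88 in C28, and 63 in C25, 64 in C26 and 65 in C27. In 5 genes such values came from 3 or more foragers of a single colony and from no other colony. They were GB40548 and GB40547 in C21, GB52825 in C28 and, with IDs paired to no name, another in C28 and another in C23, and none was of an unexposed colony. With 2 or more foragers of a single colony, the count was 3, 1 and 6 genes in C21, C23 and C28 and 2, 3 and 2 in C25, C26 and C27. Counted likewise in nurses, genes with 3 or more nurses of a single colony numbered 2, 0 and 2 in C21, C23 and C28. In C25, C26 and C27 they numbered 0, 0 and 1. The counts and their thresholds were chosen after the values were seen, and all 5 genes with 3 or more such foragers are among the genes that the study selected on these libraries.

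The other 6 IDs of the set of 7 averaged higher in exposed colonies, and none passed limma on colony means or on bees. The study had selected them on these same foragers and on nurses of the same colonies, so their direction is no independent evidence. The colony means did not overlap in GB44563, GB50061 and GB47046, beside 4.61% of all genes that were higher without overlap. GB44563 had the largest difference of these, 1.58 (95% interval 0.46 to 2.70), or 2.98-fold, at low levels. All 5 foragers of C23 had from -0.10 to 0.82 log2 CPM, 2 of C21 and 2 of C28 had from 0.04 to 0.57, and of the unexposed foragers only the first column named C25-F1, at 0.46, lay above -1.89. GB50061 differed by 0.98 (95% interval 0.39 to 1.57), with 7 exposed foragers above every unexposed one, and GB47046 by 0.76 (95% interval 0.15 to 1.37), with 9 such foragers. Its lowest forager, C23-F2 at 0.27, was exposed as well.

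GB52825, GB40719 and GB42797 owed their averages to a few bees. GB52825 had 3.76, 3.64 and 3.61 log2 CPM in 3 foragers of C28 and 0.04 or less in all others, and its difference was 0.77 with all colonies and -0.42 without C28. GB40719 had 5.09 and 5.30 in 2 foragers of C28 and 4.17 in C23-F1, and 1.66 or less in all others, with a difference of 1.12 (95% interval -0.01 to 2.25). For GB42797 the high foragers were C23-F3 at 4.75, and C21-F3 and C21-F4 at 2.23 and 1.81, and its difference was 1.01 (95% interval -0.02 to 2.03).

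The 16 transcription factors that the study lists for behavioural maturation and foraging differed by 0.28 or less on the log2 scale, and every interval included 0. They were taken from field foragers, so the apiary bees were not used to choose them. None was called by limma on colony means or on bees, 11 averaged higher and 5 lower, and their median difference was 0.06, beside -0.003 over all 11381 genes. In 0 of the 16 were the colony means apart, where 10% of all genes were. Mblk-1 (GB50048), a regulator active in mushroom body neurons, had the largest difference, 0.28 (95% interval -0.17 to 0.72). Its colony means were 11.28, 10.90 and 11.16 log2 CPM in the exposed and 10.63, 10.67 and 11.21 in the unexposed colonies, and the unexposed C27 lay above C23 and C28. Kr-h1 (GB43022), which responds to juvenile hormone, had 4.47, 4.54 and 3.36 against 4.20, 4.60 and 3.73, a difference of -0.05 (95% interval -0.89 to 0.78). The spread between single foragers was wide, from 1.84 to 5.19 in the exposed and from 1.93 to 4.93 in the unexposed group.

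The intervals of the other transcription factors were narrower. The tramtrack-like gene LOC113218618 (GB47057), a repressor, differed by 0.17 (95% interval -0.04 to 0.38), Lilliputian (GB55387) by 0.14, the Sox-2 gene (GB50686), of neural progenitors, by 0.14, and the ataxin-2 and vrille homologue LOC410253 (GB44976) by 0.13. LOC726709 (GB52109), the klarsicht homologue, differed by 0.10, hairy (GB47799), a transcriptional repressor, by 0.09, Lhx9 (GB45063) by 0.07 and Foxp (GB40150), a forkhead factor, by 0.04. SIX3 (GB49751) and dachshund homolog 2 (GB44042) differed by 0.00, big brother (GB45157) by -0.01, the zinc finger gene LOC411780 (GB49050) by -0.06, slp2 (GB44229) by -0.14 and the retinal homeobox gene (GB49611) by -0.14. Apart from Kr-h1 and Mblk-1 the interval bounds ran from -0.42 to 0.41.

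**Figure D4:**
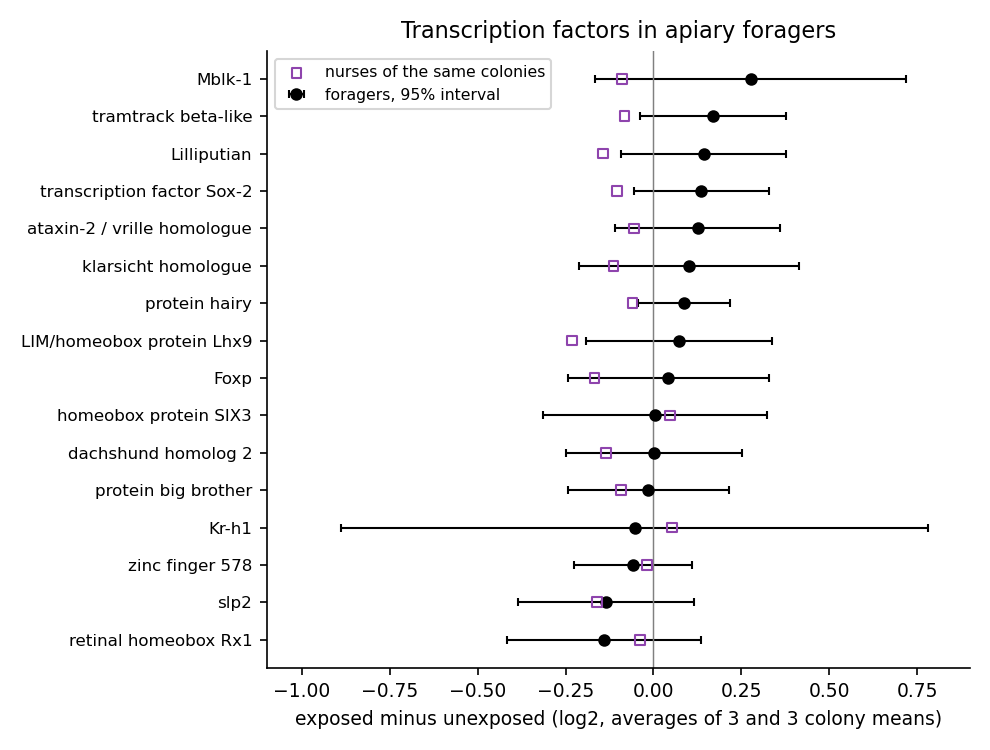
Black points give the difference between exposed and unexposed averages of colony means in foragers for each transcription factor, in log2 units on the x axis, with 95% intervals, and purple squares the same difference in nurses of the same colonies. Every forager interval includes 0, from Mblk-1 at 0.28 to the retinal homeobox gene at -0.14.

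The remaining genes with a name had differences within the spread between colonies. CPR5 (GB40299), which encodes a cuticular protein, averaged 1.50 ± 0.07 log2 CPM in exposed and 1.32 ± 0.30 in unexposed colonies (SD, n = 3 each). The uncharacterized LOC100578072 (GB49772) differed by 0.60 (95% interval -0.46 to 1.67) and LOC113218918 (GB51407), annotated as a putative subunit of the Mediator complex, by -0.21 (95% interval -0.79 to 0.37).

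Genes with the lowest p on colony means had tight colony means within each group, and the 3 described here had differences from -0.26 to 1.04. GB50091, with no name in the sources used here, averaged 8.22, 8.33 and 8.30 log2 CPM in the exposed and 7.78, 7.79 and 7.90 in the unexposed colonies, a difference of 0.46 (95% interval 0.33 to 0.59, adjusted p = 0.659 from limma on colony means). Single foragers ranged far more widely, from 6.78 to 9.13 in the exposed and from 6.81 to 8.47 in the unexposed group, and the adjusted p in the fit on bees was 0.465. GB43738 had 2.04, 2.13 and 1.80 against 1.05, 0.99 and 0.82, a difference of 1.04 (95% interval 0.70 to 1.37), while its foragers ran from -0.64 to 6.03 and from -1.25 to 4.27. On the lower side GB50101 had 5.52, 5.60 and 5.51 against 5.78, 5.82 and 5.81, a difference of -0.26 (95% interval -0.36 to -0.15). In all 3 the intraclass correlation was below 0, from -0.24 to -0.23.

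The study lists 45 genes for these foragers, and they were selected on the same libraries, so their values are a description. The study called them with edgeR on read counts at an adjusted p below 0.05. Their number is therefore not comparable with the calls of limma given here. Of the 45, 38 averaged higher and 7 lower in exposed colonies with a median difference of 0.77, and 21 higher and 4 lower genes had colony means that did not overlap, beside 4.61% and 5.4% of all genes. Of the 38, 11 had 2 exposed colonies above all unexposed ones and 6 had a single such colony. C21 was the highest exposed colony in 19 of the 38, C28 in 12 and C23 in 7. A gap of more than 2 log2 units to the next exposed colony was seen in 3 genes of C21, 2 of C23 and 3 of C28.

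Lists of genes from the other bees of the study were read in these foragers. Of the 278 genes listed for field foragers near corn, 277 were measured here. Of these, 198 averaged higher (71.5%, beside 48.5% of all genes), with a median difference of 0.06, and 14 higher and 5 lower genes had colony means apart, 6.86% beside 10% of all genes. The median deviation of these genes from the average of the 6 colonies was 0.09 in C21 and 0.09 in C28 but -0.06 in C23, and -0.04, -0.06 and 0.00 in C25, C26 and C27. The exposed colonies therefore overlapped with the unexposed ones. Of the 63 genes listed for apiary nurses, which were selected on nurses of these colonies, 56 were measured, 30 of them averaged higher, and the median difference was 0.03. Colony means were apart in 6 higher and 5 lower genes, 19.6% beside 10% of all genes. An unadjusted p below 0.05 from limma on colony means was reached by 10 of the 56, beside 4.68% of all genes. Of the 56, 10 are also in the list for these foragers. Without them colony means were apart in 7 of 46 genes (15.2%), and 6 of the 46 reached that unadjusted p. The 9 genes listed for field nurses included the lipase, the amylase gene and the chymotrypsin inhibitor. They had a median difference of -1.05 (-0.60 without the lipase, which is also listed for these foragers). Colony means were apart in 0 of 9, beside 10% of all genes.

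Nurses, the younger workers that feed the brood, were sampled from the same 6 colonies (15 exposed and 15 unexposed single brains), so that the colony was shared but no bee was. Exposed and unexposed nurse colonies differed in 0 of 11271 genes with limma on colony means (408 at an unadjusted p below 0.05, 3.62%). The difference between the forager and the nurse contrast, tested by colony over the 11151 genes in both tables, passed in 0 genes (lowest adjusted p 0.694, 550 at an unadjusted p below 0.05, 4.93%). Neither fit had run as a term, and all nurses of C28 were in run HI.4184. Across these genes the forager and nurse differences had a Pearson correlation of 0.28 and a rank correlation of -0.04, with genes not being independent and the colonies shared.

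The IDs of the sets of 2 and 7, and the myosin heavy chain, had been selected by the study in both castes of these colonies, so their values in nurses are a description. GB53776 averaged 0.96, 0.96 and 0.48 log2 CPM in exposed and 1.49, 2.28 and 1.51 in unexposed nurse colonies, a difference of -0.96 (95% interval -1.61 to -0.31) where foragers had -1.25. GB43377 was high in all 5 nurses of C28, from 4.80 to 6.10, and in a single nurse of C21 at 5.00. The myosin heavy chain was high in 3 nurses of C21, at 7.26, 7.21 and 7.14, and GB40547 in the same 3. GB52825 was high in 3 nurses of C28, at 3.77, 4.02 and 4.04. In GB50061, 4 of the 5 nurses of C23 had from 2.21 to 2.94, and C21 held a single nurse at 2.13. GB49890, myosin-IXb and bestrophin-4 are listed by the study for these foragers and not for apiary nurses. A wider difference in foragers than in nurses would follow from that selection and is no independent evidence. GB49890 differed by -0.22 in nurses (95% interval -0.81 to 0.38), with an interaction of -0.71 (95% interval -1.27 to -0.14, adjusted p = 0.897 from limma). Myosin-IXb differed by 0.10 in nurses (95% interval -0.29 to 0.50), and its interaction of 0.47 had an interval from -0.37 to 1.30. Bestrophin-4 was at or below 0.86 in all 30 nurses. Of the transcription factors, 14 averaged lower in exposed nurses and only Kr-h1 and SIX3 higher, with differences from -0.23 to 0.05, and none of their interactions passed limma. The median difference over all 11271 nurse genes was -0.001. Several of these factors were low in nurses of both the exposed C21 and the unexposed C25, such as big brother (5.67 and 5.70) and Sox-2 (5.65 and 5.77). Their directions are therefore not independent.

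**Figure D5:**
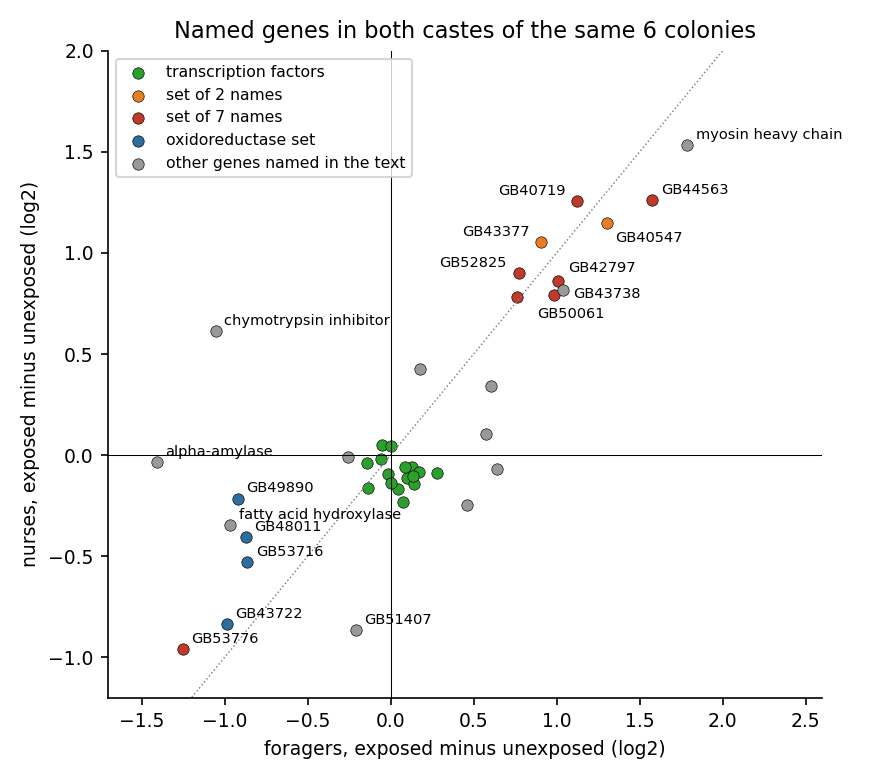
Each point is a named gene measured in both castes, with the difference between exposed and unexposed averages of colony means in foragers on the x axis and in nurses on the y axis, both in log2 units, and the dotted line marks equal differences. GB53776 lies at -1.25 and -0.96 and the myosin heavy chain at 1.79 and 1.53, while alpha-amylase lies at -1.41 in foragers and -0.04 in nurses.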

How the data were processed

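RNA sequencing was analysed for 30 apiary foragers, with 30 apiary nurses of the same colonies for the contrast of castes. Reads were trimmed with Trimmomatic 0.36, aligned and counted with STAR against amel 4.5 and Official Gene Set v3.2, filtered on low counts, and scaled with edgeR (TMM, R 3.6.3), and the authors deposited log2 CPM, each table normalized on its own. Whole reads were recovered from the equal steps of these values (100% of values below 20000 reads within 0.1 of a whole number) and gave the depths. The log2 CPM were averaged per colony, since colonies were dosed. The averages were compared by limma 3.58.1 in R 4.3.3 (mean-variance trend, two-sided, Benjamini-Hochberg over all genes, called below 0.05), with no covariate. The same fit was made on bees, and on forager minus nurse differences by colony. limma was fitted to the deposited logs in place of the authors' count test in edgeR, which was not run on the recovered reads. The scripts were tested on simulated data. Random blocks used statmod 1.5.0, and summaries and plots pandas 2.3.3, scipy 1.17.1, matplotlib 3.10.9 and numpy 2.4.6 under Python 3.11.15.

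Gene lists and the genes described were chosen with earlier results of these data known. Named genes were those that the study names and that could be paired with an ID through its supplementary tables (26 of 29 single names were in the forager table, and 13 IDs were paired as sets). To these were added genes called, and at most 2 unnamed IDs in each direction with the lowest p among genes of 1 CPM or more whose colony means did not overlap. In each direction, the pool for these IDs was the 10 such genes with the lowest p and the 5 with the largest difference. Of the 14 higher and 13 lower genes in that pool, none had a single name. The reference table matched 0 of the IDs, so 32 keyword lists, cell type markers among them, and sequences were not used here. Alternatives were bees as replicates, colony as a random block, medians, mean CPM, log2(CPM + 1), a filter at 1 CPM, equal medians or quantiles of the libraries, variances without the trend or fitted robustly, voom on reads summed per colony, run HI.4193 only, run as a term, no C25-F1 columns and leaving out each colony. Alternatives without C23-F3 and those on the spread between bees were added after seeing the data.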

Additional observations from a re-analysis of the deposited data

Results flagged for a closer look

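In 54 sets of 5 foragers of a colony, for the 9 genes plotted bee by bee, Dixon's test found 3 foragers apart from their nestmates, and chance gives about 1 in 20 sets. For the myosin heavy chain GB40548, C21-F3 stood at 1.90 log2 CPM with its nestmates between 6.89 and 7.40, and C26-F1 at -0.66 with its nestmates between 1.84 and 2.64. For GB53716, C25-F4 stood at 3.70 with its nestmates between 0.81 and 1.38.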

How the results depend on the processing

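On colony means the count of called genes was 0 in every alternative kept at the level of colonies, with the lowest adjusted p between 0.0734 (without C28) and 1.00 (without C26). It was 1 with bees as replicates, 1 with colony as a random block and 3 (1 higher, 2 lower) with run as a term and that block, and GB53776 was called in these 3 fits, at -1.25, -1.25 and -1.35. The fit on bees called 23 genes in run HI.4193 alone, 38 without C23-F3, and from 0 to 68 when each colony was left out, with GB53776 not called without C26 or without C27. The contrast of castes called 0 genes in every alternative. No paired analysis was possible because each colony was either exposed or unexposed and bee numbers mark no pair. The ratio of the spread between bees was 1.29, and 1.13 without the bee of each colony that raised it most.

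Of 623 values of the named genes under alternatives that kept every colony, 15 reversed in sign. Kr-h1 (GB43022) had 0.0175 with colony medians, 0.0177 with mean CPM, 0.0372 with voom, 0.182 in run HI.4193, 0.235 with run as a term and 0.0136 without the C25-F1 columns. Big brother (GB45157) had 0.177 in run HI.4193, 0.118 with run as a term and 0.0653 without C23-F3. SIX3 (GB49751) had -0.0102 with voom, -0.0450 in run HI.4193 and -0.0678 without the C25-F1 columns, and dachshund homolog 2 (GB44042) had -0.0370 with run as a term and -0.00502 without those columns. The chymotrypsin inhibitor (GB50118) had 0.0958 in run HI.4193. Leaving out each colony reversed 20 of 252 values. The ranges were -0.275 to 0.329 for GB43022, -0.118 to 0.0138 for GB49050, -0.110 to 0.0582 for GB45157, -0.0120 to 0.244 for GB52109, -0.0924 to 0.112 for GB40150, -0.0932 to 0.139 for GB49751, -0.0121 to 0.178 for GB45063, -0.0827 to 0.0927 for GB44042, -0.316 to 1.26 for GB48190, -0.0155 to 1.48 for GB43377 and -0.421 to 1.47 for GB52825. The cause was not tested. With 3 colonies in each group, the median standard error of a difference was 0.0809 on the log2 scale, and genes near the floor of -3.75 log2 CPM, such as GB40547, rest on few reads even at the lowest depth of 19.7 M.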
